A study of Mus musculus with 107 samples.

Results

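The genes for the proteins of the mitochondrial ribosome were followed over the livers of 104 mice. Members were chosen by name alone. A gene was a member if its probe carried a single symbol made of Mrpl (large subunit) or Mrps (small subunit) and a number, with no measured value used. The array held 69 such probes for 68 genes. A filter on measured values (90% or more of the arrays) kept 67 of these genes, 42 large and 25 small, among 12315 named genes in all. Mrpl21 did not pass, because its probe was measured on 82.7% of the arrays.

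The mice were females of an F2 generation of C57BL/6J and DBA/2J parents, so each carried its own mixture of both parental genomes, and all were fed an atherogenic diet. Each liver RNA was compared on a 2-colour array with a pool made from equal amounts of RNA of all the mice. There was 1 group and no control, so the design allowed only a description of how genes varied from mouse to mouse and which varied together. The labels state 111 mice. Of 107 arrays, those of mice 24, 55 and 91 held only 0 or missing values. Values stopped at a lower and an upper limit. In 18 arrays, called limit-rich below, 946 to 1828 probes stood at a limit, while the other 86 had 0 to 496 such probes. No RNA was measured on more than 1 array, so spread over mice includes array noise. In whole liver, fewer cells of a type and less RNA per cell cannot be told apart, and ratios to a pool of the same livers do not show whether a marker of liver is present.

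The mitochondrial ribosome translates the few proteins that mitochondrial DNA still encodes, all of them core subunits of the respiratory chain and the ATP synthase. Its RNAs come from mitochondrial DNA, but its proteins are made in the cytosol from nuclear genes and imported. Some descend from bacterial ribosomal proteins and others have no bacterial counterpart. The small subunit decodes the message, and the large subunit joins the amino acids. Liver is rich in mitochondria, since its fatty acid oxidation, urea synthesis and gluconeogenesis all depend on them.

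Promoters of the members are shown first, because a shared regulation of nuclear genes for mitochondrial proteins is classically ascribed to factors that bind near their start sites: NRF1, the ETS-family factor GABP (also called NRF2) and YY1. RefSeq promoter windows of 300 bases (250 before and 50 after the start, GRCm38.p6) were found for 59 of the 67 members. The 200 bases before the start are printed for 4 of them, 5′ to 3′ along the gene's strand. Mrpl34 holds the ETS-family letters, Mrpl12 the NRF1 letters and Mrpl28 none of the letters searched for these factors. Each was picked for the highest median r with the other members over mice among printable stretches of its kind. Mrpl17 holds the NRF1 letters and was picked for the lowest median r among printable stretches with such letters. Its 300-base window also holds the ETS-family letters. The matched letters are in capitals.
Mrpl34, chr8:71464726-71464925, + strand: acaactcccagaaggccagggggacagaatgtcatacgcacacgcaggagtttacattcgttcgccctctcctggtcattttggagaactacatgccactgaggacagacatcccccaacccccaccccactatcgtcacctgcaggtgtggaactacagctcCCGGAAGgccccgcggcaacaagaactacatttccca
Mrpl12, chr11:120484437-120484636, + strand: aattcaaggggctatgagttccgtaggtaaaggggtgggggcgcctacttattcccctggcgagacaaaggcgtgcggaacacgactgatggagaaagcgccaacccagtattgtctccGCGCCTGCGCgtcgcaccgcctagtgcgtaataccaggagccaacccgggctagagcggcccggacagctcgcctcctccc
Mrpl28, chr17:26123303-26123502, + strand: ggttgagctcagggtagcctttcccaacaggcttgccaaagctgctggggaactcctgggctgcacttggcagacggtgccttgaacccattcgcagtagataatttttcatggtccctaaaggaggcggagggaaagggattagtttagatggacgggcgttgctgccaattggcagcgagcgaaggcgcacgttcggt
Mrpl17, chr7:105811088-105811287, - strand: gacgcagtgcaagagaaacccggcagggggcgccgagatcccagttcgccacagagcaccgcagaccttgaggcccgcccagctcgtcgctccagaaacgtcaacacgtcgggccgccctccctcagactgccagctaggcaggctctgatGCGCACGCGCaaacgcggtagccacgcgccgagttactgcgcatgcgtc

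Mrpl46 and Mrps11 are neighbours that are read away from each other, and only 41 bases separate their starts. This stretch is shown because a gene of each subunit starts at its ends.
Mrpl46 to Mrps11, chr7:78783090-78783130, + strand: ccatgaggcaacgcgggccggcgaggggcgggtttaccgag
Their levels over mice had r = 0.343 (rho = 0.444, permutation p = 0.0004 for r and 1e-05 for rho, the latter the smallest that 100000 permutations can give). The adjusted p over all pairs of genes was 0.00241. Over all pairs of members the median r was 0.307, and 56.4% were called positive. Mrpl46 was among the members most like the rest, with a median r of 0.593, as described below. Mrps11 had a median r of 0.219 with the other members, with 29 positive calls of 66 and none negative.

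Letters of known factors were searched on both strands of the 300-base windows, and matches of different factors were allowed to overlap. CCGGAAG, the ETS-family letters, occurred in 21 of 59 member promoters (35.6%), against 15.6% of 9683 other genes of the array and 9.93% of 27025 genes in the table. The NRF1 letters, GCGCA and GCGC with any base between them, occurred in 11 (18.6%), against 8.73% and 5.19%. AAGATGGC, the YY1 letters, occurred in 10 (16.9%), against 4.21% and 3.19%. At least 1 of these 3 occurred in 36 of the 59 (61.0%), against 25.2% of the other genes of the array. CCAAT was found in 40.7% of the member promoters and 42.1% of the others, and TATAAA in 8.47% and 12.0%. The NRF1 letters occurred in 9 of 36 large subunit promoters and 2 of 23 of the small subunit, and the ETS-family letters in 12 and 9. A match is a description of the letters, not a binding site.

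Each member's value was the log2 ratio of mouse to pool. The ratios were deposited without a stated log base or direction, and base 10 and mouse over pool are assumed here. Range means the fold between the 5th and 95th percentiles over mice. The median range of the members was 1.75-fold (1.78 for the large and 1.69 for the small subunit), against 1.94-fold over all 12315 genes. Only 12 of the 67 (17.9%) ranged over more than 2-fold, 7 large and 5 small, against 46.9% of all genes. If the deposited values were natural logarithms, the median range would be 1.27-fold and 2 members would exceed 2-fold.

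**Figure D1:**
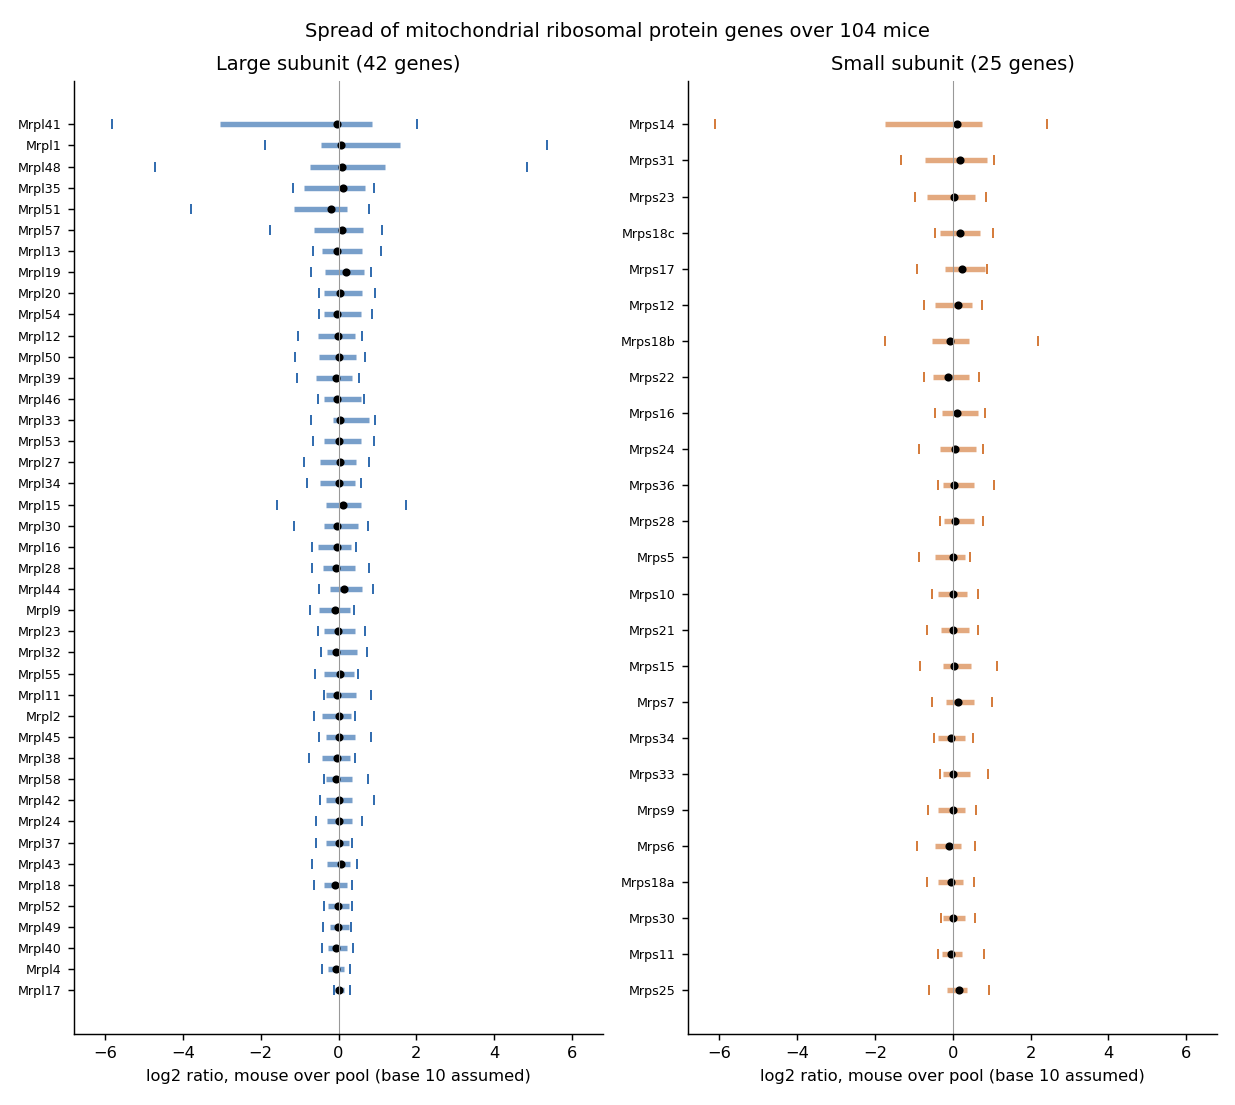
Spread of each member over mice on the log2 scale, large subunit on the left and small on the right, ordered by range. Bars run from the 5th to the 95th percentile, points are medians and ticks mark the lowest and highest mouse. Most bars are under 1 unit long on this scale, while Mrpl41 and Mrps14 reach far below 0.

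Narrow members included Mrpl17, a protein near the exit tunnel of the large subunit, with a range of 1.18-fold. Its lowest value was -0.13, its median 0.02 and its highest 0.30 over 104 mice. Mrpl4 ranged over 1.32-fold (lowest -0.41, median -0.06, highest 0.28). Mrpl40 ranged over 1.40-fold (lowest -0.43, median -0.07, highest 0.37). All 3 belong to the large subunit, and no mouse lay as much as 2-fold from the pool in any of them.

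The widest member was Mrpl41, a large subunit protein without a bacterial counterpart, at 15.1-fold. Its lowest value was -5.81, its median -0.04 and its highest 2.01 (103 mice). Mrps14, a small subunit protein with a bacterial counterpart, followed at 5.64-fold (lowest -6.11, median 0.12, highest 2.42, 103 mice). Mrpl1, which forms the L1 stalk of the large subunit, ranged over 4.13-fold (lowest -1.89, median 0.07, highest 5.36, 97 mice). For Mrpl41 and Mrps14 the tail was downwards and for Mrpl1 upwards, and the extreme mice of all 3 were mostly limit-rich arrays. Without those arrays the ranges were 3.68-fold for Mrpl41, 2.31-fold for Mrps14 and 2.11-fold for Mrpl1. With values at the limits kept, the range of Mrpl1 was 31.4-fold.

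Mrpl48 ranged over 3.79-fold, with tails on both sides (lowest -4.73, median 0.08, highest 4.84), and over 3.03-fold without the limit-rich arrays. Mrps31 ranged over 3.03-fold (lowest -1.33, median 0.18, highest 1.05) and over 2.87-fold without them. Mrpl35 ranged over 3.00-fold (lowest -1.17, median 0.11, highest 0.91) and over 3.07-fold without them. Mrps31 and Mrpl35 were thus about as wide without the limit-rich arrays as with them.

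**Figure D2:**
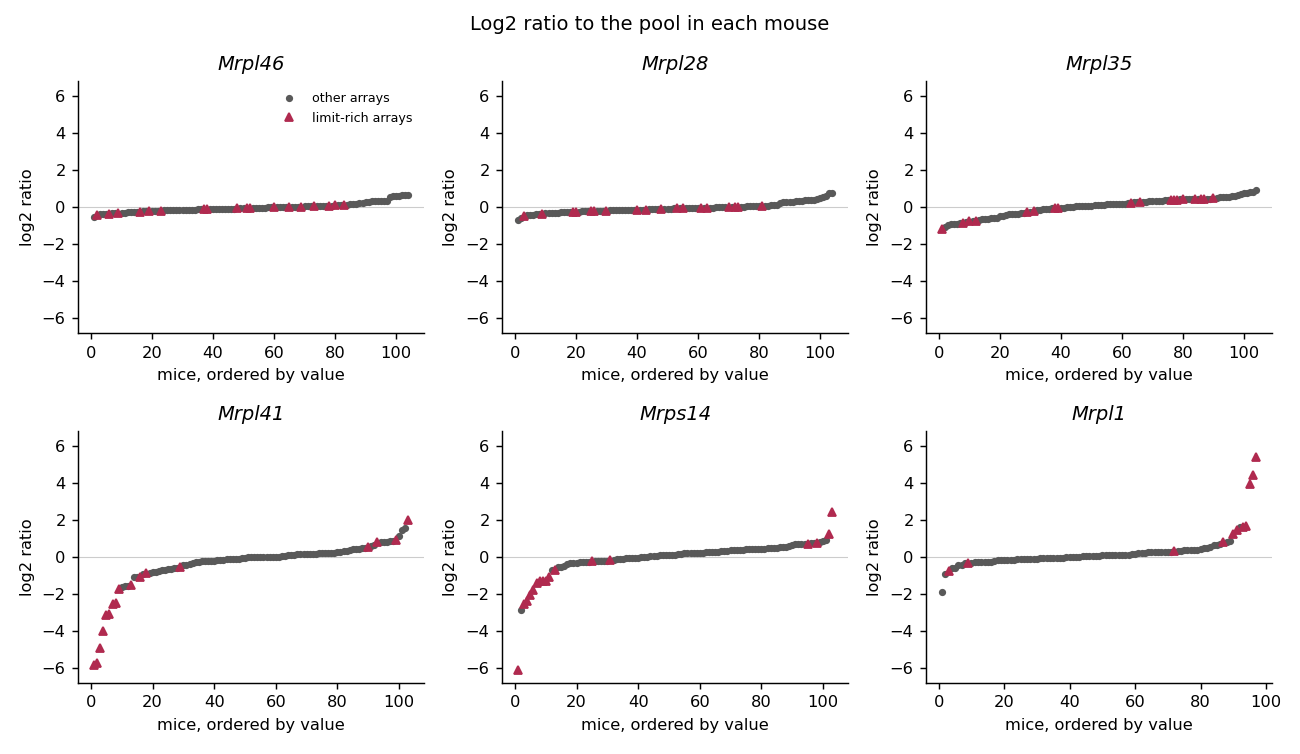
Log2 ratio to the pool in each mouse for 6 members, mice ordered by value along the x axis. Grey points are the other arrays and red triangles the 18 limit-rich arrays. Mrpl46, Mrpl28 and Mrpl35 have limit-rich arrays spread along the curve, while the far values of Mrpl41, Mrps14 and Mrpl1 are mostly limit-rich.

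The 18 limit-rich arrays were compared with the other 86 by limma over all genes, with Benjamini-Hochberg adjustment and values at the limits left out. The grouping came from limit values counted in the same data, those of member probes included. Genes with far values on these arrays are thus prone to differ, and their p-values are no independent evidence. Of the 67 members 2 were higher, where 10.3% of all genes were, and 6 were lower, where 7.63% of all genes were. Mrpl1 was higher by 1.74 log2 (SE 0.237, adjusted p = 1.59e-08), with a mean of 1.78 on the 11 limit-rich arrays that measured it and 0.04 on the others. Mrpl48 was higher by 0.89 (SE 0.204, adjusted p = 0.000575). Mrpl41 fell by 1.92 on the limit-rich arrays (SE 0.281, adjusted p = 1.18e-07), with means of -1.96 and -0.05. Mrps14 fell by 1.15 (adjusted p = 7.00e-05) and Mrpl51 by 0.78 (adjusted p = 1.19e-05). Mrpl57, Mrpl45 and Mrpl33 fell by 0.47, 0.24 and 0.19 (adjusted p from 0.000214 to 0.0409). The other 59 members did not pass this test. With each array centred and scaled, 2 members were higher, where 4.52% of all genes were, and 5 were lower, where 3.48% were.

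Members rose and fell together over mice. The test was Pearson's r for each of the 75823455 pairs of genes, with Benjamini-Hochberg adjustment over all pairs and a call at an adjusted p under 0.05, which an r of 0.239 reaches with 104 mice. Of the 2211 pairs of members, 1247 (56.4%) were called positive and 56 (2.53%) negative. Of all pairs of genes 14.8% were called positive and 14.3% negative. Of pairs of a member and a non-member, 17.5% were called positive and 16.0% negative. The median r of the member pairs was 0.307 (quartiles 0.0833 and 0.526, lowest -0.519, highest 0.904), against -0.001 over all pairs. Pairs share genes and mice, so they are not independent. P-values measure the spread between single arrays of single mice.

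Pairs within the small subunit had a median r of 0.377, with 201 of 300 (67%) called positive. Pairs within the large subunit had a median of 0.245, with 436 of 861 (50.6%) called positive. Pairs of a large and a small subunit gene lay between these, with a median of 0.324 and 610 of 1050 (58.1%) called positive. So large subunit genes varied with those of the small subunit as much as with each other. The order of the 3 medians is a description, and it turned over within the 18 limit-rich arrays (0.252 small, 0.309 large, 0.296 between). Structures of the mammalian ribosome place Mrps30 and Mrps18a in the large subunit despite their names. With both moved there, the medians were 0.353 within the small, 0.268 within the large and 0.326 between.

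Members with a bacterial relative were also compared with those found only in mitochondria. The 780 pairs among the 40 with a relative had a median r of 0.279 (53.7% called positive). The 351 pairs among the 27 without had a median of 0.338 (63.0% called positive), and pairs across both kinds had 0.310 (56.2%). These medians differ by less than the distance between the quartiles of each, as do those of the subunits. That distance is the spread of single pairs, not the precision of a median, and neither difference was tested.

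**Figure D3:**
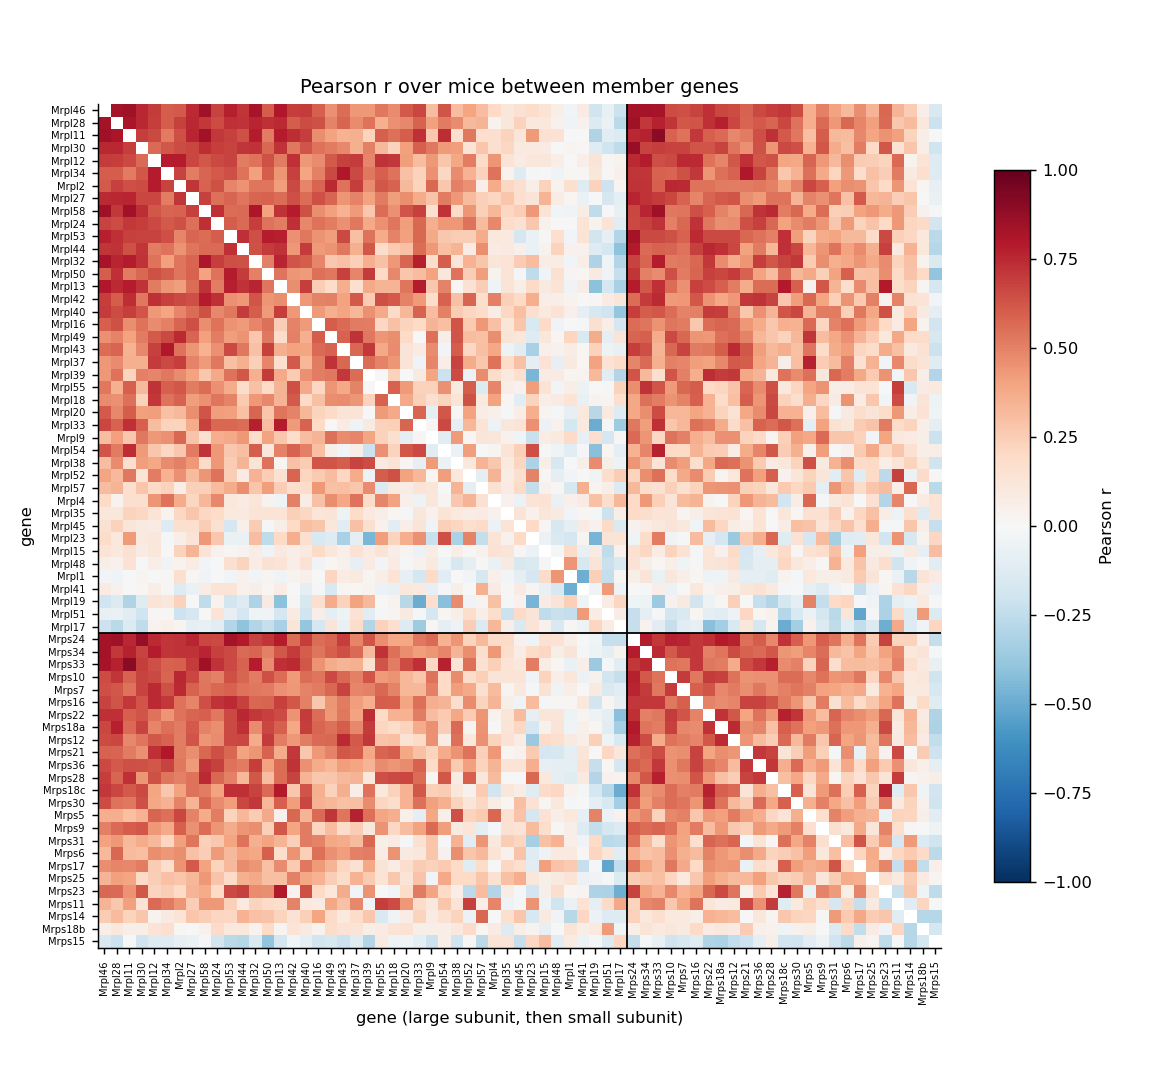
Pearson r over mice for every pair of members, red for positive and blue for negative. Genes of the large subunit come first, then the small subunit, each ordered by median r, with black lines between them. Red fills most of all 4 blocks, and the last few genes of each subunit are pale or blue.

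Of the 67 members, 51 were called positive with more than 33 of the 66 others, 30 of 42 in the large and 21 of 25 in the small subunit. Mrpl46, a large subunit protein without a bacterial counterpart, had the highest median r with the others, 0.593, with 53 positive calls and none negative. Its lowest value was -0.54 (mouse 78), its median -0.04 and its highest 0.64 (mouse 18). Mrpl28 followed with a median r of 0.572 and 53 positive calls (lowest -0.69, median -0.07, highest 0.77). Mrps24, the counterpart of bacterial protein S3 at the entry of the messenger channel, had 0.565 and 50 positive calls (lowest -0.88, median 0.07, highest 0.78). Their ranges were 1.91-fold, 1.77-fold and 1.89-fold, against a median of 1.75-fold for the members and 1.94-fold over all genes.

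Close behind were Mrpl11, at the base of the stalk that receives translation factors, with a median r of 0.524, and Mrpl30 with 0.522. Mrps34, a small subunit protein without a bacterial counterpart, had 0.519. Mrpl12, the stalk protein itself, had 0.513, and Mrps33 had 0.511. These 5 had 47 to 52 positive calls with the other 66 members and at most 1 negative call.

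The highest r of any pair joined the subunits. Mrpl11 and Mrps33 had r = 0.904 (rho = 0.841, adjusted p = 2.82e-35), and 0.879 without the 2 mice farthest from the median. Mrpl30 and Mrps24 had r = 0.867 (rho = 0.823, adjusted p = 5.85e-29), and Mrpl28 and Mrps24 had 0.849 (rho = 0.858). Mrpl11 and Mrpl46, both of the large subunit, had 0.851 (rho = 0.777). Mrpl58, an enzyme of the large subunit that frees peptides from stalled ribosomes, had 0.847 with Mrpl46 (rho = 0.792) and 0.844 with Mrps33 (rho = 0.805). The permutation p was 1e-05 for r and for rho in all 6 pairs, the smallest possible, and the adjusted p at most 6.23e-26. Within the 18 limit-rich arrays these r lay between 0.628 and 0.857.

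A few members stood outside this shared variation. Mrps15, which binds ribosomal RNA in the small subunit, had a median r of -0.130 with the others, with 1 positive and 11 negative calls (lowest -0.83, median 0.04, highest 1.12). Mrpl17 had -0.111, with 3 positive and 16 negative calls. It was also the member of narrowest range, and only 0.00812% of all genes had a narrower range. Mrpl51 had -0.052, with 2 positive and 5 negative calls (lowest -3.80, median -0.19, highest 0.78, 102 mice). Mrpl19 had -0.010, with 6 positive and 12 negative calls (lowest -0.72, median 0.19, highest 0.83). Mrpl41 (0.016, 2 positive calls) and Mrpl1 (0.022, 2 positive calls) came next, and both are among the widest members. Within the limit-rich arrays alone, the r of Mrpl19 with the mean of the other members was 0.578, against -0.0510 on the other 86. For Mrpl1 these values were 0.537 (11 limit-rich arrays) and 0.0121, and for Mrpl51 0.178 and -0.378. Mrps15 had -0.407 and -0.130, Mrpl17 -0.123 and -0.143, and Mrpl41 0.0365 and -0.0955.

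Only 3 of the 56 negative pairs are named here, those of lowest r. Mrpl51 and Mrps17 had r = -0.519 (rho = -0.492, adjusted p = 5.80e-07). Mrpl17 and Mrps18c had -0.494 (rho = -0.457, adjusted p = 2.06e-06). Mrpl19 and Mrpl33 had -0.493 (rho = -0.347, adjusted p = 2.23e-06), but r = 0.173 within the limit-rich arrays. The permutation p was 1e-05 for r in all 3.

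Mrps18b was the only kept member with more than 1 probe, and its 2 probes had r = -0.0740 with each other. One had an SD of 0.86 log2 and r = 0.0103 with the mean of the other members. The other had an SD of 0.17 and r = 0.534. Their average was used, which gave Mrps18b a median r of 0.076 and 2 positive calls, so its place among the outsiders depends on the probe. All other members rest on a single probe each. Its relatives Mrps18a and Mrps18c, which descend from the same bacterial protein, had medians of 0.473 and 0.358.

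The mean of all members, each scaled to SD 1, summarises each mouse. The large subunit mean and the small subunit mean had r = 0.948 (rho = 0.937), and r = 0.941 without mice 18 and 43, 0.951 without the limit-rich arrays and 0.924 within them. With each gene scaled anew over the arrays kept, these were 0.943, 0.946 and 0.945. No p is given, since the members were chosen as a group. Mouse 18 had the highest member mean, 1.43 SD units, with 63 of 67 members above the pool (94.0%, against 52.8% of all genes). Mouse 43 had 1.38 with 61 (91.0%, against 54.1%). Mouse 113 followed with 1.28 and mouse 44 with 1.08. Mouse 78 had the lowest, -1.21, with 15 members above the pool (22.4%, against 48.0% of all genes), then mouse 71 with -1.01, mouse 26 with -0.93 and mouse 140 with -0.92. Mouse 71 is the only one of these 8 from a limit-rich array.

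**Figure D4:**
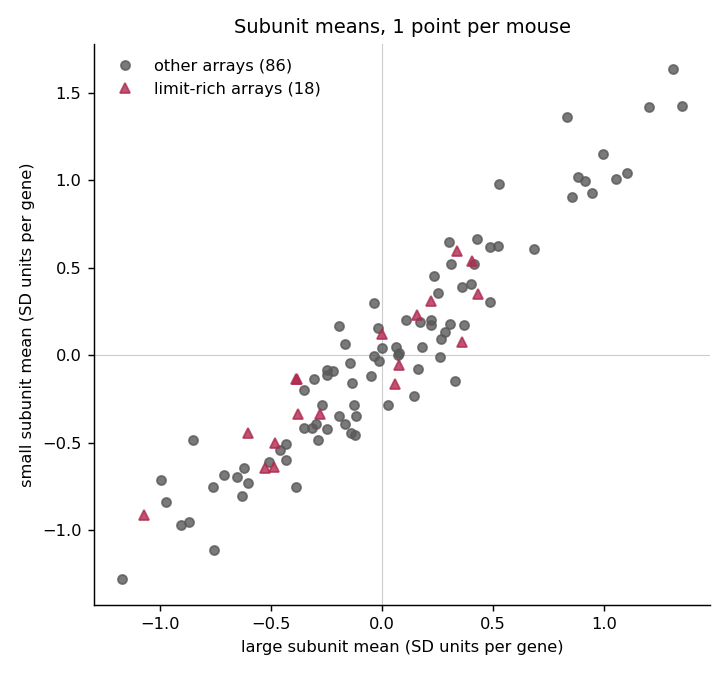
Mean of the small subunit genes against mean of the large subunit genes, 1 point per mouse, in SD units per gene. Grey points are the other 86 arrays and red triangles the 18 limit-rich arrays. Both kinds of array lie along 1 rising line, and the means had r = 0.948 over 104 mice.

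Properties of the whole array moved with the member mean. The array median over all genes, which lay between -0.10 and 0.06 log2, had r = 0.562 with it (rho = 0.688). The members had a median r of 0.344 with the array median, against 0.0559 for all genes. With the array median taken out of every gene by regression, 47.9% of member pairs were called positive where 11.8% of all pairs were, and their median r was 0.228. The first principal component over all genes, 16.7% of the variance, had r = 0.665 with the member mean. With it removed, 42.4% of member pairs were called positive where 10.1% of all pairs were, and the median r was 0.185. The array's SD had r = -0.166 with the member mean.

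Genes of the same machinery under other names varied with the members. Small subunit proteins that carry no Mrps symbol were represented by Chchd1, Dap3, which binds GTP, and Ptcd3, an RNA-binding protein. Their r with the member mean was 0.771, 0.513 and 0.423. Of their 201 pairs with members 63.7% were called positive. Of 9 factors that assemble the ribosome, 8 had an r above 0, with a median of 0.347 and 40.6% of pairs called positive. Malsu1, which keeps the large subunit from joining too early, had 0.808 and 52 positive calls. The GTPase Mtg2 had 0.522 and 44 positive calls. Dhx30, an RNA helicase of mitochondrial granules, ran the other way, with r = -0.478 and 40 negative calls of 67.

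Factors that work with the ribosome in translation were less alike. The 18 translation factors and ribosomal RNA enzymes measured had a median r of 0.331 with the member mean, with 13 above 0. Of their 1206 pairs with members 35.4% were called positive and 8.79% negative. The initiation factor Mtif3 had 0.696 and 48 positive calls, Mterf3, a regulator of mitochondrial transcription and ribosome assembly, 0.631, and the RNA methyltransferase Mrm2 0.612. Lowest of this list was Mrm1 at -0.279, with 0 positive and 22 negative calls. The 10 mitochondrial aminoacyl tRNA synthetases, which load tRNAs with amino acids, had a median r of 0.0852 (0.0487 for all 12248 non-members). Of their 670 pairs with members 32.8% were called positive and 8.81% negative. Among them the serine enzyme Sars2 had 0.739, the phenylalanine enzyme Fars2 0.680 and the cysteine enzyme Cars2 0.530, with 45 to 50 positive calls of 67. The histidine enzyme Hars2 had 0.427 and 38 positive calls, while the glutamate enzyme Ears2 had -0.184 and 27 negative calls.

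Regulators of mitochondrial biogenesis were mixed at the RNA level. Tfam, which packs mitochondrial DNA and helps to start its transcription, had r = 0.756 with the member mean and 48 positive calls. Tfb2m, a factor of mitochondrial transcription, had 0.484 and 40 positive calls, and the nuclear receptor Esrra had 0.426 and 37. For the factors whose letters were searched in the promoters, Nrf1 had r = -0.0381, with 1 positive and 1 negative call, and Yy1 had 0.100, with 10 positive and 1 negative. The GABP subunits differed: Gabpa had -0.162 (4 positive and 15 negative calls), Gabpb1 0.0294 (11 and 10) and Gabpb2 0.157 (10 and 1). The coactivator Ppargc1a had -0.219 with 21 negative calls, and Myc had -0.402 with 31 negative calls. These 7 are given because they are textbook regulators of the group. The 12 regulators had a median r of 0.0649, and 23.6% of their pairs with members were called positive and 13.4% negative. Over all pairs of a member and a non-member these shares were 17.5% and 16.0%. The 11 genes of mitochondrial DNA maintenance had a median of 0.0874, led by Tfam, Mpv17 (0.567) and Polg2 (0.416). Of these 11 genes 8 had an r above 0, while Rnaseh1 had -0.245 and 24 negative calls.

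Nuclear genes of oxidative phosphorylation varied with the members. The subunits that this ribosome itself makes are not among the genes of these lists. The ATP synthase list had a median r of 0.790 with the member mean over 14 genes, and 69.7% of their 938 pairs with members were called positive. Atp5o had 0.886 (rho = 0.863), the highest of all non-members, with 54 of 67 members called positive. Complex III (8 genes) had a median of 0.750, complex IV (12 genes) 0.732, complex I (30 genes) 0.703 and complex II (3 genes) 0.656. Shares of pairs called positive lay between 62.2% and 72.1% for these lists. Complex II has no subunit made by this ribosome, unlike the other complexes, and its Sdhd had 0.812. Leading genes of the others were Uqcrc2 (0.852) of complex III, Cox6c (0.839) and Cox4i1 (0.821) of complex IV, and Ndufb9 (0.831) and Ndufv2 (0.827) of complex I.

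Among all 12248 non-members, 47 had an r above 0.8 with the member mean and 7 below -0.8, and 90% lay between -0.522 and 0.550. The 10 most alike by r over 104 mice were Atp5o, Pam16 (0.885), Atp5j2 (0.879), Atp5md (0.873), Psmb7 (0.866), Pcbd2 (0.862), Atp5g2 (0.859), Fmc1 (0.853), Uqcrc2 and Atp5c1 (0.843). Of these Atp5o, Atp5j2, Atp5md, Atp5g2 and Atp5c1 encode parts of the ATP synthase, and Fmc1 helps to assemble it. Pam16 belongs to the motor that pulls proteins into mitochondria. Psmb7 is a catalytic subunit of the proteasome, which is not mitochondrial. The 6 of lowest r were Cic, a transcriptional repressor (-0.907), Zswim8 (-0.847), Glg1 (-0.838), Macf1, a cytoskeletal linker (-0.824), the signalling adaptor Grb2 (-0.818) and 2610024B07Rik (-0.808). Cic was called negative with 55 of 67 members and positive with none, and its r was -0.905 without the limit-rich arrays.

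Other mitochondrial lists and the list of fatty acid oxidation lay lower. Import (23 genes) had a median r of 0.551, with Pam16, Timm17b (0.833) and Grpel1 (0.803) in front. Tomm34 of this list had -0.701, with 53 of 67 members called negative and none positive. Fatty acid oxidation (12 genes, not all of them for mitochondrial enzymes) had 0.493, with Acadm (0.663), Hadhb (0.652) and the peroxisomal Ehhadh (0.592). Chaperones and proteases (13 genes) had 0.435, with the chaperonin Hspe1 (0.813), the prohibitin Phb2 (0.783) and the protease Clpp (0.718). Of these 13 genes 10 had an r above 0, while Spg7 had -0.391, with 34 of 67 members called negative. The tricarboxylic acid cycle (10 genes) had 0.361, with Suclg1 (0.733), Fh1 (0.658) and Mdh2 (0.589). The 9 genes of mitochondrial stress and the amino acid response had -0.213, with Ddit3 (-0.423) and Sesn2 (-0.310) below 0 and Shmt2 (0.434) above. With the first principal component removed, the median of fatty acid oxidation was -0.0799, while those of complex I (0.555) and the ATP synthase (0.619) stayed high.

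Ribosomal proteins of the cytosol did not follow those of mitochondria. The 32 genes of the large cytosolic subunit had a median r of 0.0792 with the member mean, and 22.5% of their pairs with members were called positive and 15.4% negative. The 21 genes of the small cytosolic subunit had 0.0323, with 20.0% and 18.4%. Both shares of positive pairs are near the 17.5% of all non-members. Rpl11 had -0.523 and Rps4x -0.380, while Rpl27a had 0.457 and Rpl21 0.406. Rps6 had -0.298 and Rps26 0.275. These medians depend on the arrays used: within the limit-rich arrays they were -0.359 and -0.361, and with the first principal component removed 0.448 and 0.331. The 18 genes of cytosolic ribosome biogenesis had a median of -0.0765, with Polr1a, a subunit of RNA polymerase I, at -0.543, Ncl (nucleolin) at -0.451 and Nop10 at 0.431.

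The core of the proteasome, the protein-degrading complex of cytosol and nucleus, varied with the members too. Its 14 genes had a median r of 0.686, all above 0, and 69.5% of their pairs with members were called positive. Psmb7, Psmb4 (0.785) and Psma5 (0.776) led. The median was 0.695 with the first principal component removed, above those of the ATP synthase and complex I given before, and 0.687 within the limit-rich arrays.

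**Figure D5:**
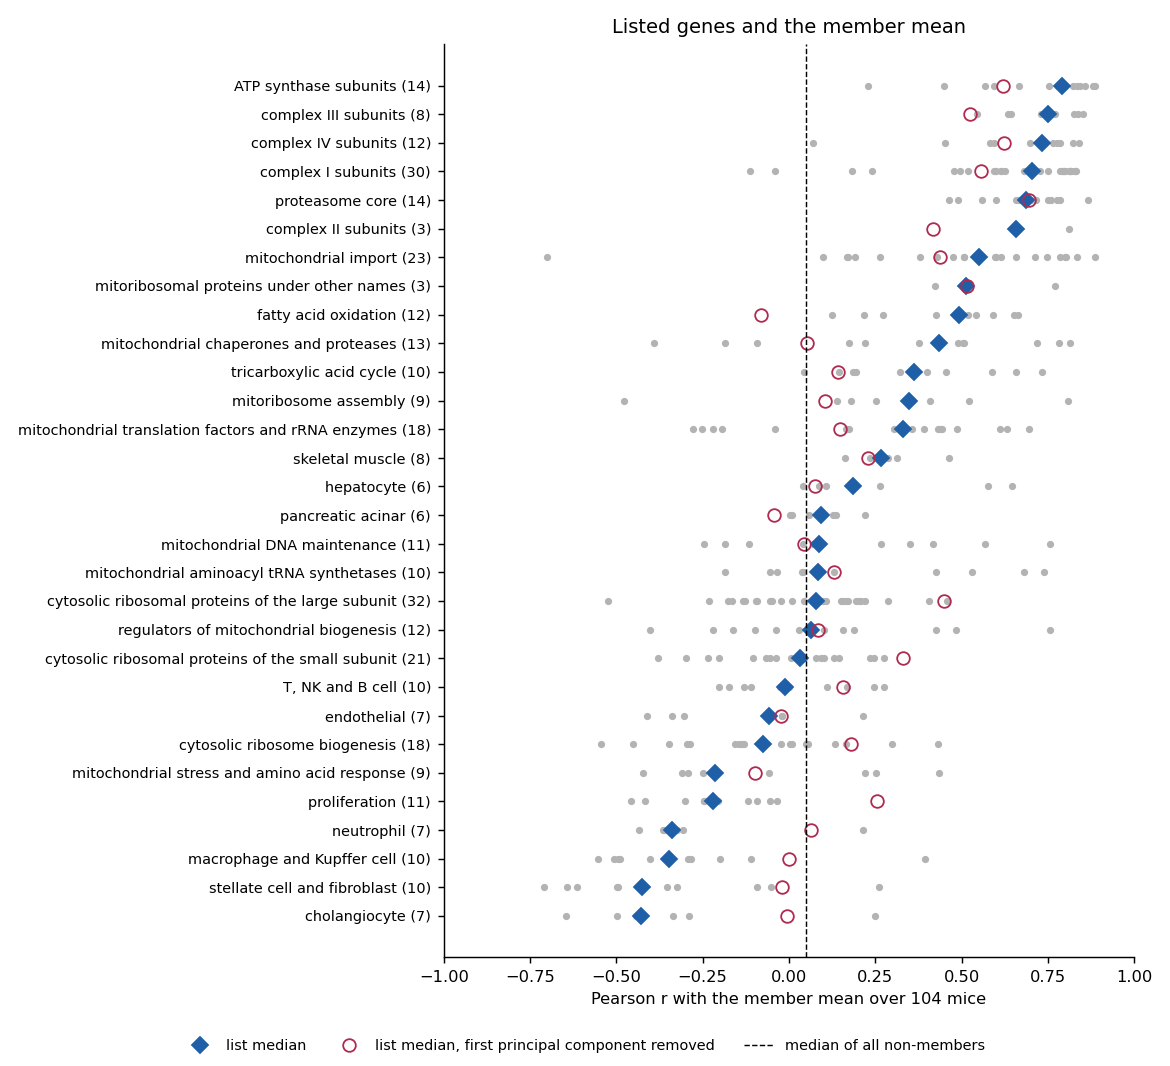
Pearson r with the member mean over 104 mice for the genes of 30 lists, number of genes in brackets. Grey points are genes, blue diamonds list medians, red circles the list medians with the first principal component removed, and the dashed line is the median of all non-members (0.0487). Respiratory chain, ATP synthase and proteasome lists lie at the top, and connective tissue, bile duct and macrophage lists at the bottom.

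Markers of cell types moved with the member mean too, and their part in the shared variation of the members was not tested. Markers of hepatocytes (6 genes) had a median r of 0.185, all above 0, with Apoc3 at 0.646, Ttr at 0.575 and Apoa1 at 0.263. Markers of stellate cells and fibroblasts (10 genes) had -0.425, 9 of them below 0, with Pdgfrb at -0.710, Col1a1 at -0.642 and Col1a2 at -0.615, while Des had 0.260. Bile duct markers (7 genes) had -0.429, with Sox9 at -0.646, Krt7 at -0.499 and Epcam at -0.443, while Krt23 had 0.250 with 21 positive calls. Macrophage markers (10 genes) had -0.347, with the complement genes C1qc (-0.553), C1qb (-0.508) and C1qa (-0.494). The exception of the macrophage list was Clec4f, a receptor of resident Kupffer cells, at 0.395. Neutrophil markers (7 genes) had -0.339, with Ngp at -0.435, S100a9 at -0.364 and Ltf at -0.361, while Elane had 0.213. Elane had 10 positive calls over 67 members, a share no larger than the 17.5% of all pairs of a member and a non-member.

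Lists of proliferation, endothelium, lymphocytes and other tissues had medians between -0.221 and 0.265. Proliferation genes had a median of -0.221, all 11 below 0, with Mki67 at -0.458, Ccna2 at -0.416 and Cdc20 at -0.301. Endothelial markers had -0.0568, with Lyve1 at -0.413, Eng at -0.340 and Tie1 at -0.303, while Cdh5 had 0.215 and Pecam1 -0.0568. T, NK and B cell markers had -0.0121, with Ms4a1 at 0.275, Mzb1 at 0.245 and Ccl5 at -0.202. Skeletal muscle markers had 0.265, with Mylpf at 0.463, Acta1 at 0.312 and Myl1 at 0.287. Pancreatic acinar markers had 0.0917, with Cela1 at 0.220, Cpa1 at 0.135 and Cel at 0.126. With the first principal component removed, the medians of the stellate (-0.0195), bile duct (-0.00517) and macrophage (-0.00114) lists were close to 0 and that of proliferation genes was 0.255.

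The 4 widest members had partners of their own. Mrpl41 was most like Tnf, an inflammatory cytokine (r = 0.783, rho = 0.448), but r was 0.200 without the limit-rich arrays. Zfp974, 1700001G17Rik, Cct6b and Nlgn1 followed at r between 0.724 and 0.753, of which 1700001G17Rik kept 0.658 without those arrays. Mrps14 was most like 4930503E24Rik (0.794, 0.293 without the limit-rich arrays), and then Lman2 (0.751, 0.719 without), Itgb3bp, Vcp and Ccdc30. Mrpl1 was most like Gdf11 (0.714), which had rho = 0.0450 and r = -0.0725 without the limit-rich arrays. Nsun3, 4930523C07Rik, Trpv3 and Zc2hc1b followed Mrpl1 at 0.649 to 0.703, of which 4930523C07Rik had rho = 0.121 and r = 0.0629 without the limit-rich arrays. Mrpl48 was most like Vax1 (0.790, 0.689 without), Trim71 (0.780, 0.779 without), 4930534D22Rik (0.773, 0.822 without), Wdyhv1 and Hoxd1. The adjusted p of r over all pairs of genes was at most 1.14e-10 for these 20 pairs. By rank, the permutation p was 0.668 for Mrpl1 with Gdf11 and 0.25 for Mrpl1 with 4930523C07Rik, and at most 0.00465 for the others.

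The partners of Mrpl35 lay mostly on its own chromosome. It was called positive with 3 members and negative with none, and with only 2.26% of non-members. Of the 10 genes with the largest absolute r with Mrpl35, 7 lie on its own chromosome, which holds 5.49% of the genes. They were Anxa4 (r = 0.660, rho = 0.612, adjusted p = 2.85e-12), Gsdme (0.587), Ogg1, a DNA repair enzyme (0.506), Osbpl3 (-0.490), Retsat (0.427), Dusp16 (-0.395) and Ndufa9 of complex I (0.377). Dmd (0.392), Dtd1 (0.371) and Pde4dip (0.369) lie elsewhere. The permutation p of r was at most 0.00013 in these 10 pairs, and the adjusted p at most 0.000924. Without the limit-rich arrays Anxa4 had 0.645 and Gsdme 0.567. Among the same 10 genes for each other member, 37 members had none on their chromosome, 22 had 1 and 7 had 2. Mrpl35 was singled out after its values were seen, and no genotypes were analysed here.

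Promoter letters and shared variation were set side by side. The 36 members with ETS-family, NRF1 or YY1 letters had a median of their median r of 0.394, and the 23 without had 0.355. For the YY1 letters alone the medians were 0.448 with (10 members) and 0.356 without (49). For the ETS-family letters they were 0.384 and 0.381, and for the NRF1 letters 0.378 and 0.383. Mrpl17 and Mrpl28, printed above, were picked by their letters and their median r. They therefore cannot show whether letters and median r go together.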

How the data were processed

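Liver RNA of 107 female F2 mice was measured on 2-colour arrays against a pool. The authors deposited 1 value per probe and array, read here as log10 ratios and converted to log2. Which base, direction, dyes and normalization they used is not given in the sources used here. Base 10 was assumed because values stop at -2 and 2, which is 100-fold. With all signs turned, medians change sign and correlations stay. Values at these limits were treated as not measured (14 of 7072 member values). Of 23536 probes, 20633 were measured on 90% or more of 104 arrays, and 13238 of these had 1 gene symbol in the platform annotation (8774 of all probes had none and 18 several). Probes of a gene were averaged, giving 12315 genes. Spot intensities were not analysed here, and precision is limited by how many arrays there were.

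Pearson's r of all gene pairs had p from its t distribution over the mice measured in both, with Benjamini-Hochberg adjustment. Named pairs also had two-sided permutation tests (100000 draws). Arrays with over 700 limit values formed the limit-rich group, compared with the others by limma 3.58.1 in R 4.3.3. The split rests on these counts alone, not on a batch given by the labels. Other steps used Python 3.11.15, numpy 2.4.6 and scipy 1.17.1, and both tests were tried on simulated data. Members and the 30 gene lists (365 of 450 entries measured) were chosen with earlier results of these data known.

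Named were the 8 members of highest and 6 of lowest median r, the 6 widest and 3 narrowest, any with a negative median r, 2 probes or too few values. Also named were the 6 highest and 3 lowest pairs, the 10 highest and 6 lowest non-members, up to 3 genes per list, and 5 partners of each of the 4 widest members. Mrpl35's partners, the neighbours Mrpl46 and Mrps11, the 7 textbook regulators and the exceptions within lists were named after their values were seen. These exceptions were Mrm1, Hars2, Ears2, Rnaseh1, Spg7, Tomm34, Clec4f, Des, Krt23, Elane, Cdh5 and Pecam1. The printed promoters were picked by their letters and their median r.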

Additional observations from a re-analysis of the deposited data

How the results depend on the processing

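Alternatives were the limit-rich arrays left out or used alone, genes centred within the limit-rich and within the other arrays, limit values kept, and ranks. Others were probes measured on every array, the first principal component removed, arrays centred and scaled, 1 probe per gene and subunits reassigned. Regressing out the array median was added after seeing the data. Over these, apart from the limit-rich arrays alone, the share of member pairs called positive lay between 42.4% (first principal component removed) and 67.7% (probes on every array, where 18.8% of all pairs were called), and their median r between 0.185 and 0.385. Within the 18 limit-rich arrays alone 7.55% were called positive, where 1.11% of all pairs were, and 0% negative, with fewer mice to test on. With the first principal component removed 4.03% were called negative, against 2.53% before, and the cause was not tested. The r between the subunit means was 0.915 with the first principal component removed, 0.937 with arrays centred and scaled, 0.962 with Mrps30 and Mrps18a in the large subunit and 0.924 with the array median regressed out. Under natural logarithms 2 members ranged over more than 2-fold, where 5.85% of all genes did. Mrpl1 and Gdf11 reversed to r = -0.0725 without the limit-rich arrays. Within those arrays Mrpl19 and Mrpl33 reversed to 0.173, Mrpl35 and Dmd to -0.193, and Mrpl35 and Ndufa9 to -0.0966. The cause of these reversals was not tested. With 18 arrays, only strong correlations can pass the test. Without replicate arrays, noise and differences between mice cannot be told apart, and a member with 1 probe has no check on that probe.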

Other observations

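Short genes tended to lie on the side of the members. Over 12070 genes with a known span, the r of a gene with the member mean had r = -0.181 with the logarithm of its span (rho = -0.183), across genes, which are not independent. The median r was 0.112 in the shortest 1207 genes, with a median span of 1865 bases, and -0.0301 in the longest 1207, with 183076. The members themselves had a median span of 7306 bases, against 19032 over all genes.

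Mrps36 carries a ribosomal name but is known as a part of the 2-oxoglutarate dehydrogenase complex. It was picked for that reason after its values were seen. Its median r with the other members was 0.428, with 50 positive calls and none negative. Its r with the mean of the others was 0.766 without the limit-rich arrays and -0.0130 within them.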
